A study of Homo sapiens with 6 samples.

Results

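The genes described here are the cytosolic heat shock chaperones and their co-chaperones, 53 genes taken by symbol: the HSP70 and HSP110 proteins, HSP90, the DNAJ proteins, the small heat shock proteins, the co-chaperones of HSP70 and HSP90, the CCT chaperonin and the heat shock factors. Of these, 51 were read by 71 probes, out of 19090 named genes and 28264 probes in all. HSPB11 is the older symbol of the gene that the annotation names IFT25. Array values of AHSA1 and HSF2 were not analysed here, and these genes enter only the search of promoter windows below. The arrays hold RNA of cells labelled Hep3B, an established hepatocellular carcinoma line grown in DMEM with serum. On 3 single-colour Cy3 arrays the cells carried a vector, which the sample titles call GFP, and on the other 3 they carried CCN5 (WISP2), a secreted matricellular protein. Both groups were transfected, whether transiently or as 1 clone is not given, no untransfected cells were analysed here, and neither the promoter of the construct nor the time after transfection is given in the sources used here.

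Heat shock proteins keep other proteins folded. HSP70 binds exposed hydrophobic stretches in cycles of ATP hydrolysis that DNAJ proteins (HSP40) start and that HSP110 and BAG proteins end by releasing ADP. HSP90 takes over partly folded clients such as kinases and steroid receptors with the help of its own co-chaperones, and CCT is a ring that encloses actin, tubulin and other proteins while they fold. When unfolded protein builds up, the factor HSF1 forms trimers on repeats of the letters GAA and TTC near the start of heat shock genes and switches them on. Tumour cells often hold high levels of these proteins.

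Median intensity per array was 504 to 600, and the upper quartile 2486 to 2618. All differences below are normalized log2 intensity, CCN5-labelled minus vector-labelled arrays, so a positive value is a higher signal with the CCN5 label. The 1 probe of the targeted gene, CCN5, did not follow the label. It read 851 ± 25.7 (SD, n = 3 arrays) with the vector label and 655 ± 30.7 (SD, n = 3) with the CCN5 label. The difference was -0.34 (exact two-sided permutation p = 0.1, the smallest that 3 arrays against 3 allow). Where this probe lies in the transcript was not examined, so whether it reads RNA of the construct is not known. Every direction given here therefore rests on the labels alone. The markers did not match the labelled line. The 17 hepatocyte markers measured had a median at percentile 26.7 of all probes by signal, with albumin (ALB) at 12.2 (intensity 30.9 to 84.9) and alpha-fetoprotein (AFP) at 26.7. The 9 squamous markers measured had their median at 83.4, with the keratins KRT5 at 98.4 and KRT14 at 95.4. These percentiles rank how bright a probe is and are not transcript levels. Of these 9 squamous markers 6 were lower with the CCN5 label, and their summed intensity was 122395 to 137773 on the arrays labelled vector and 128759 to 139225 on those labelled CCN5. Of the 17 hepatocyte markers 12 were lower (median difference -0.09), although their sums, of which FOXA3 gave the most, read 5884 to 6687 with the vector label and 6562 to 7155 with the CCN5 label. Leukocyte markers had 7 of 9 members lower, with sums of 6617 to 7693 and 4941 to 6093, and fibroblast markers 7 of 10 lower, with sums of 6321 to 9134 and 6396 to 7758. Both lists were mostly dim, with medians at percentile 34.3 for leukocyte and 29.1 for fibroblast markers, and 7 of each below the 50th. The part that other cells play in the chaperone values was not tested, and in such bulk RNA fewer cells of a type and less RNA per cell cannot be told apart.

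Most chaperone genes read higher on the arrays labelled CCN5, by small amounts. By the brightest probe of each gene, 41 of 51 were higher and 10 lower, with a median difference of 0.15, against a median of -0.01 over all 19090 genes, of which 48.1% were higher (80.4% of the members). The members ranged from -0.48 (DNAJB2) to 0.76 (HSPA4L). With limma over all probes 0 of the 71 member probes were called higher or lower at an adjusted p under 0.05, which was also the background, 0.0% of the 28264 probes in either direction. At an unadjusted p under 0.05 there were 13 members higher (25.5%), against a background of 8.58% of all genes, and 2 lower (3.92%), against 11.2%. On 18 of the 51 genes the 3 arrays labelled CCN5 all lay above the 3 labelled vector (35.3%, background 12.0%), and on 3 they all lay below (5.88%, background 16.0%).

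Chaperone probes are bright, with a median at percentile 92.2 of signal, and 46 of the 51 genes lay in the brighter 50% of probes. Among genes of that brighter part the background of an unadjusted p under 0.05 was 10.8% higher, against 13 of these 46 members (28.3%), and non-overlapping arrays were found for 16.2%, against 18 of 46 (39.1%). This background is not matched for signal. The 46 members had a median at percentile 93.2, against 76.7 for all genes of the brighter part. When limma was run on those brighter 14132 probes alone, 10 of 62 member probes were called higher (16.1%, background 3.06%) and 1 lower, that of DNAJB2 (background 4.01%). The called probes were those of HSPA1A, HSPA14, DNAJA1, DNAJC2, FKBP5 and CHORDC1, both of HSPA8, and the second-brightest of HSPH1 and DNAJB6. Whether the replicates were separate cultures is not stated, so each p-value reflects no more than array-to-array spread, possibly technical.

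**Figure D1:**
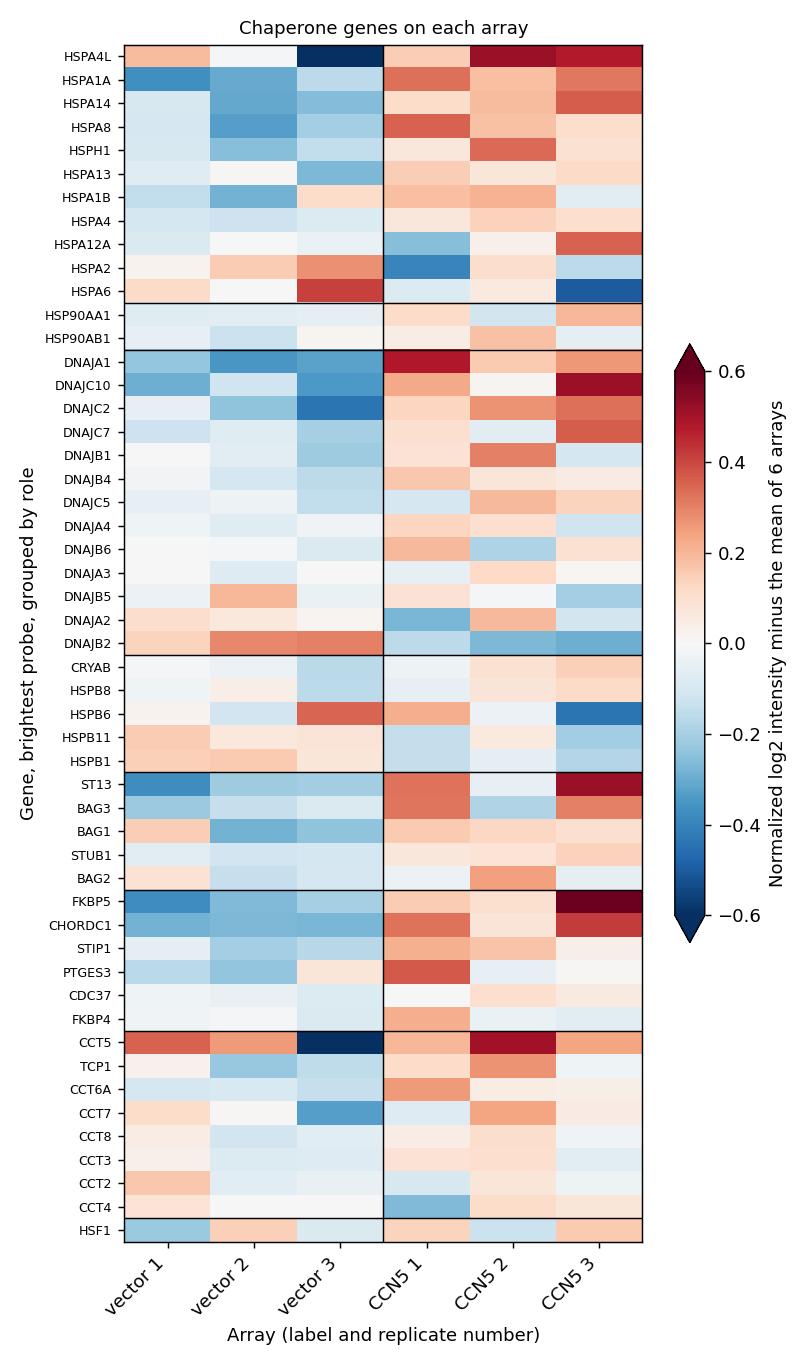
Normalized log2 intensity of the 51 chaperone genes (rows, brightest probe, grouped by role) on the 6 arrays (columns), each as the deviation from the mean of the 6 arrays, with colours ending at 0.6 in either direction. The HSP70, DNAJ and co-chaperone blocks are mostly blue on the vector side and red on the CCN5 side, the small heat shock proteins are not, and vector replicate 3 stands out for CCT5 and HSPA4L.

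The map of deviations can be read array by array. The median deviation of the 51 genes from their 6-array means was -0.03, -0.08 and -0.10 on vector replicates 1, 2 and 3. On the CCN5 replicates in that order it was 0.11, 0.10 and 0.07. Every array labelled CCN5 thus lay above every array labelled vector, while the same median over all genes stayed between -0.02 and 0.02.

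The letters that HSF1 binds are shown here because they are the sequence feature that heat shock genes are known to share. In the RefSeq windows of 250 bases before to 50 after each start (GRCh38.p14), 46 of the 53 genes had at least 1 window, 65 windows in all; HSPA14, CRYAB, ST13, STUB1, FKBP4, CCT6A and HSF1 had none. A pair of adjacent units, GAANNTTC or TTCNNGAA (each reads the same on both strands), was found in windows of 21 of these 46 genes (45.7%), against 16.2% of all 27305 genes with windows. A run of at least 3 units, GAA and TTC in turn with 2 bases between them, was found in 7 genes (15.2%), against 0.608% of all genes. Such a run contains pairs, so the counts overlap. The CCAAT box (CCAAT or ATTGG) was in windows of 39.1% of the 46 genes and 39.7% of all, and the TATA letters (TATAAA or TTTATA) in 19.6% and 14.0%. The 9 runs of 7 genes follow, 5′ to 3′ in the direction of the gene, with the run in capitals and 10 bases on each side.
HSPA6, chr1:161524456-161524488 (plus strand): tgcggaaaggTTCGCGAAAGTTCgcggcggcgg
HSP90AB1, chr6:44247768-44247800 (plus strand): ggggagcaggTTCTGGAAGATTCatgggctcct
HSP90AB1, chr6:44247821-44247853 (plus strand): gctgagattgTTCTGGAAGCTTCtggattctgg
DNAJB6, chr7:157336863-157336895 (plus strand): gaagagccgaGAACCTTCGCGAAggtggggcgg
DNAJA1, chr9:33025266-33025298 (plus strand): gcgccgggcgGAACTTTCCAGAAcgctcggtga
CHORDC1, chr11:90223077-90223119 (minus strand): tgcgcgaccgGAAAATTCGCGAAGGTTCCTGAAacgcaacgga
HSPA8, chr11:123062344-123062376 (minus strand): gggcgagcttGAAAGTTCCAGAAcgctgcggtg
HSPA8, chr11:123062169-123062201 (minus strand): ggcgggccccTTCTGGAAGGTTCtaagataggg
HSP90AA1, chr14:102087110-102087142 (minus strand): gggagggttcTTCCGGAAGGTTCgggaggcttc

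The run of CHORDC1 was the longest of them, with 5 units, 60 to 38 bases before the start. HSPA8 and HSP90AB1 had 2 separate runs each. That of DNAJA1 lay just inside the transcript, at bases 4 to 16. The runs of HSP90AB1 and HSP90AA1 lay at 1 of the several starts listed for each gene. A match is only these letters in this window, and factor binding was not measured here.

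Among the HSP70 and HSP110 proteins 9 of 11 were higher with the CCN5 label, with a median of 0.22, and 5 (45.5%) had an unadjusted p under 0.05, against 8.58% of all genes. HSPA1A, the stress-inducible HSP70, read 41875, 40657 and 45641 on vector replicates 1, 2 and 3. On CCN5 replicates 1, 2 and 3 it read 66206, 61856 and 68602. The groups lay well apart, the lowest array labelled CCN5 being above the highest labelled vector. The difference was 0.55 (SE 0.10) with a 95% interval of 0.31 to 0.79, which is 1.46-fold (limma's adjusted p 0.106). HSPA1B codes for nearly the same protein from a neighbouring gene, and its probe read 5611, 5041 and 6709 with the vector label and 6972, 7262 and 5875 with the CCN5 label. Its groups overlapped, since CCN5 replicate 3 lay below vector replicate 3, and the difference was 0.22 (SE 0.14, adjusted p 0.441). As the copies are so alike, the probes may read RNA of both, which cannot be told apart here.

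The start regions of HSPA1A and HSPA1B are printed because they show how alike the copies are. Over 299 aligned bases of their windows 277 were identical (92.6%). Each window held 1 pair of heat shock units (capitals), 2 CCAAT letters and 1 TATA match, and neither held a run of 3.
HSPA1A, chr6:31815293-31815592 (plus strand): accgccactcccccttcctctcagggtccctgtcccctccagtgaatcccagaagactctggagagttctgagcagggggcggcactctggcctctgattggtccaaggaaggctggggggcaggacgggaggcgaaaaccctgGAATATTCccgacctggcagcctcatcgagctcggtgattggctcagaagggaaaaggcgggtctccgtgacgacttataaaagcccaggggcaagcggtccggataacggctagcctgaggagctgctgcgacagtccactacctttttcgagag
HSPA1B, chr6:31827488-31827787 (plus strand): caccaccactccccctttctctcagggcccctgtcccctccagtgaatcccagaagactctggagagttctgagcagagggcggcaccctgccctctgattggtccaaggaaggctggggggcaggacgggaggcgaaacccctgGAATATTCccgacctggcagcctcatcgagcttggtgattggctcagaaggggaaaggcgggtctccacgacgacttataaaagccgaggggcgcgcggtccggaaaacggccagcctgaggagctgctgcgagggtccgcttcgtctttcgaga

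HSPA8 is the constitutive HSP70, present in unstressed cells, and its brightest probe read 61884, 49687 and 55350 on the arrays labelled vector. With the CCN5 label it read 85633, 75189 and 75270, all above the vector arrays, a difference of 0.43 (SE 0.11, interval 0.16 to 0.69; adjusted p 0.149). A second probe gave 0.39 (SE 0.10). HSPA14, an HSP70-like protein that works with DNAJC2 at the ribosome, read 2695, 2329 and 2413 with the vector label and 3126, 3288 and 3601 with the CCN5 label. These arrays did not overlap either, with a difference of 0.44 (SE 0.11, adjusted p 0.141). HSPH1 (HSP105), which exchanges the nucleotide of HSP70, read 28457, 24082 and 26139 against 30872, 38772 and 32101, a difference of 0.33 (SE 0.11), and its second probe gave 0.44 (SE 0.09). Its relative HSPA4 read 54363, 49971 and 52594 against 59104, 64697 and 63903, a difference of 0.21 (SE 0.08) with no overlap. HSPA13, a microsomal HSP70, stood at 0.22 (SE 0.10), also with no overlap.

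HSPA6, a strictly stress-induced HSP70, had a negative difference. It read 653, 646 and 871 with the vector label and 642, 624 and 408 with the CCN5 label. As deposited all 3 arrays labelled CCN5 lay below the others by a narrow gap, but after normalization the groups overlapped, and the difference of -0.35 had an SE of 0.18 (adjusted p 0.346). HSPA2, best known from the testis, stood at -0.30 (SE 0.15) and the distant relative HSPA12A at 0.09 (SE 0.16). The largest difference of the family, 0.76 for the HSP110 protein HSPA4L, was poorly determined (SE 0.39), since this dim probe (percentile 24.6) read 109, 137 and 56.6 with the vector label against 156, 157 and 155. Without vector replicate 3 it was 0.29.

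HSP90, among the most abundant proteins of the cytosol, stood at 0.13 and 0.11 by the brightest probes of its inducible and constitutive genes. HSP90AA1, the inducible form, read 105933, 100522 and 101315 on the arrays labelled vector and 119776, 103145 and 130697 on those labelled CCN5. The groups overlapped through CCN5 replicate 2, and the difference was 0.13 (SE 0.11, interval -0.12 to 0.39; adjusted p 0.537), while a second probe did not overlap and gave 0.28 (SE 0.11). HSP90AB1, the constitutive form, read 208379, 185619 and 204612 against 233588, 234894 and 216438. These deposited values did not overlap, the normalized ones did, and the difference was 0.11 (SE 0.10, interval -0.13 to 0.35), with a second probe at 0.10. The upper ends of both intervals lay above the lower end of that of HSPA1A.

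**Figure D2:**
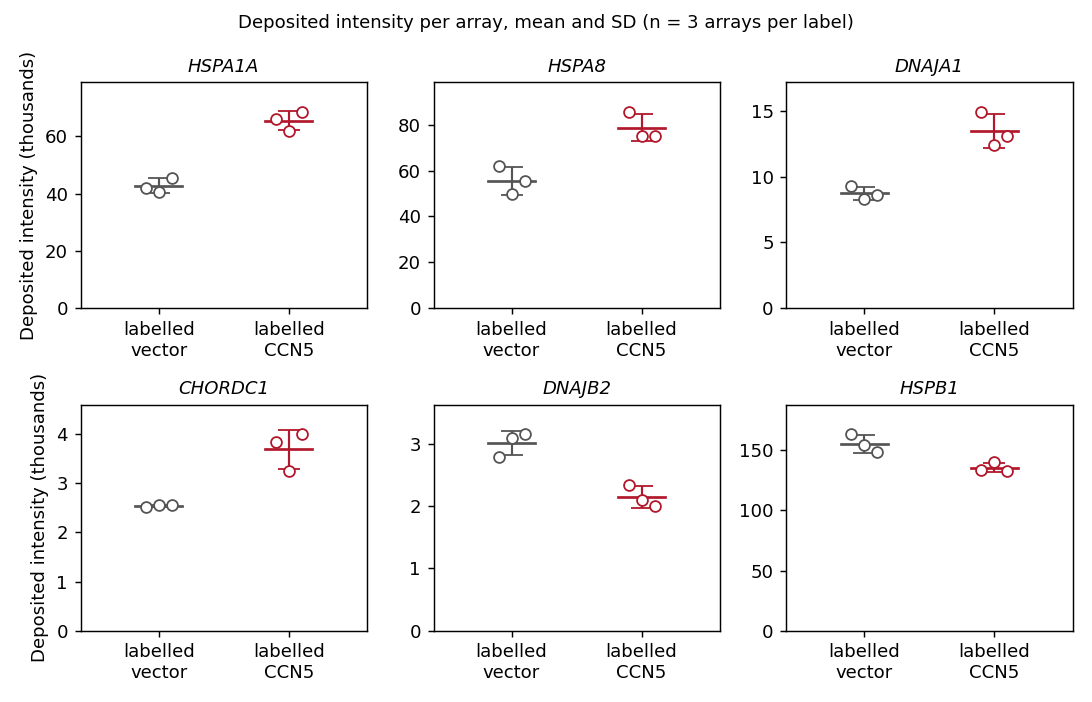
Deposited intensity (vertical axes from 0) on the 3 arrays of each label for 6 genes, with points for arrays, a long line for the mean and whiskers for 1 SD. The arrays labelled CCN5 lie above those labelled vector for HSPA1A, HSPA8, DNAJA1 and CHORDC1, and below them for DNAJB2 and HSPB1.

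The DNAJ proteins hand unfolded clients to HSP70, and 10 of 13 were higher with the CCN5 label (median 0.15). DNAJA1, the main cytosolic class A partner of HSP70, had the family's smallest p after HSPA1A among brightest probes. It read 9287, 8316 and 8577 with the vector label and 14914, 12380 and 13112 with the CCN5 label. All 3 arrays labelled CCN5 lay above the highest vector array. The difference was 0.60 (SE 0.11), 1.52-fold, with an interval from 0.33 to 0.87 (adjusted p 0.107). DNAJC2, the partner of HSPA14 in the ribosome-associated complex, stood at 0.49 (SE 0.13), with no overlap. The probes of the ER-lumen reductase DNAJC10 went opposite ways. The brightest read 1735, 1990 and 1732 with the vector label and 2557, 2164 and 3001 with the CCN5 label, a difference of 0.51 (SE 0.15). The other read 1452, 1500 and 1643 against 1452, 1365 and 1251, a difference of -0.15 (SE 0.09), and on neither probe did the normalized groups overlap. Of the 18 members with several probes, DNAJC10, DNAJA2 and CCT2 had probes that differed in sign.

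DNAJB1, the classical heat-inducible HSP40, read 10130, 9290 and 8523 against 10423, 12644 and 9317. Its groups overlapped, with a difference of 0.19 (SE 0.13, adjusted p 0.474). DNAJB2, a J-protein that binds ubiquitin and sends clients to the proteasome, had the smallest p of the members that were lower. It read 2790, 3098 and 3155 with the vector label and 2334, 2105 and 1999 with the CCN5 label, with no overlap. The difference was -0.48 (SE 0.09) with an interval from -0.71 to -0.26, or 1.40-fold in favour of the vector label (adjusted p 0.112). DNAJB4 (0.19) and DNAJC7 (0.26), a TPR protein that joins HSP70 and HSP90, had arrays that did not overlap. DNAJC5 of synaptic vesicles (0.15), DNAJA4 (0.08), DNAJB6 (0.07), the mitochondrial DNAJA3 (0.05), DNAJB5 (-0.08) and DNAJA2 (-0.12) overlapped. The probes of DNAJB6 were uneven at 0.07, 0.43 and 0.06, and the 2 of DNAJA2 differed in sign (-0.12 and 0.06).

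Small heat shock proteins hold unfolded proteins without ATP. The group listed under that name had 3 of 5 members lower (median -0.17). That count and median include HSPB11, which is in the group by its older symbol only. HSPB1 (HSP27) read 163421, 154062 and 148696 with the vector label and 133933, 139871 and 132665 with the CCN5 label. All 3 arrays labelled CCN5 lay below, with a difference of -0.25 (SE 0.08, interval -0.45 to -0.04; adjusted p 0.202), while a second probe gave -0.11 (SE 0.12). HSPB11 (IFT25), which belongs to the intraflagellar transport machinery, read 30965, 27545 and 27864 against 24120, 29232 and 24233. It overlapped as deposited and not after normalization, with a difference of -0.20 (SE 0.10). CRYAB (0.14), HSPB8 (0.10), the partner of BAG3, and HSPB6 (-0.17) overlapped, and the probes of CRYAB and HSPB6 lay below the 50th percentile of signal.

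All 5 co-chaperones of HSP70 were higher with the CCN5 label, 2 of them at an unadjusted p under 0.05, where 48.1% of all genes were higher and 8.58% passed that p. ST13 (HIP), which holds HSP70 in its ADP form, read 7828, 8503 and 8588 with the vector label and 12433, 9868 and 14553 with the CCN5 label. The arrays labelled CCN5 were spread widely and still lay above the others, with a difference of 0.53 (SE 0.16, interval 0.15 to 0.91; adjusted p 0.172). STUB1 (CHIP), the ubiquitin ligase that marks HSP70 clients for breakdown, read 23217, 21638 and 21843 against 24878, 26455 and 27309, a difference of 0.19 (SE 0.08, adjusted p 0.261). BAG3, a heat-inducible exchange factor that directs clients to autophagy, read 26650, 26943 and 28269 against 37680, 28020 and 38713. CCN5 replicate 2 lay among the vector arrays, so the groups overlapped, with a difference of 0.30 (SE 0.15, adjusted p 0.347). BAG1 stood at 0.25 (SE 0.13), with a second, dim probe at 0.02, and BAG2, an inhibitor of CHIP, at 0.10 (SE 0.12).

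All 6 HSP90 co-chaperones measured were higher as well, with a median of 0.25. CHORDC1, a heat-induced CHORD-domain partner of HSP90, read 2515, 2554 and 2558 on the arrays labelled vector and 3842, 3249 and 4004 on those labelled CCN5. The vector arrays were nearly equal and all below, and the difference was 0.55 (SE 0.11), again 1.46-fold, with an interval from 0.28 to 0.82 (adjusted p 0.120). A second CHORDC1 probe gave 0.50 (SE 0.14). FKBP5, the immunophilin that lowers the hormone affinity of the glucocorticoid receptor and is itself induced by glucocorticoids, read 1381, 1515 and 1614 against 2062, 1926 and 2641. Its groups did not overlap, with a difference of 0.56 (SE 0.15, interval 0.20 to 0.92; adjusted p 0.154), and a dim second probe gave 0.36.

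STIP1 (HOP), which bridges HSP70 and HSP90, differed by 0.28 (SE 0.09), with 14881 to 17056 on the arrays labelled vector and 18417 to 20433 on those labelled CCN5. PTGES3 (p23), which steadies closed HSP90, stood at 0.22 (SE 0.15), with a second probe at 0.22. CDC37, the kinase adaptor, stood at 0.10 (SE 0.08), with a second probe at 0.24, and FKBP4 at 0.08 (SE 0.11), with a second probe at 0.19. CDC37 had arrays that did not overlap after normalization but did as deposited.

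The CCT chaperonin had the smallest median of the 3 larger groups, 0.11, with 6 of 8 subunits higher. By their brightest probes 0 had an unadjusted p under 0.05, against 8.58% of all genes higher and 11.2% lower. With only 8 subunits, 0 cannot be told apart from those shares. CCT6A read 14940, 14567 and 14190 with the vector label and 18849, 16835 and 16606 with the CCN5 label. It was the 1 subunit whose groups did not overlap by its brightest probe (12.5%, near the background of 12.0%). Its difference was 0.22 (SE 0.10, adjusted p 0.278). TCP1 (CCT1) read 12526, 10124 and 10864 against 12958, 15230 and 12090, a difference of 0.24 (SE 0.12), with overlap. CCT7 (0.14), CCT8 (0.09), CCT3 (0.08), CCT2 (-0.04) and CCT4 (-0.05) overlapped too. Second probes, whose normalized groups did not overlap, gave 0.19 for CCT2 and -0.21 for CCT4, and the other probes of CCT7 gave 0.09 and 0.22.

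CCT5, described after its values were seen, had the group's largest difference, 0.62, and rested on 1 array. Its brightest probe read 83812 and 72464 on vector replicates 1 and 2, 21380 on vector replicate 3 and 73860, 91278 and 79703 on the arrays labelled CCN5. Vector replicate 3 was thus at 29.5% of the lowest other array, the SE was 0.50, and without that array the difference was 0.0036. On that array 36 of the brighter 14132 probes lay under 50% of the lowest other array, against 2 to 13 on each of the other arrays. A dim CCT5 probe (percentile 36.9) had no such value, at 181, 211 and 212 against 307, 307 and 294, and gave 0.62 (SE 0.11) with no overlap. Its unadjusted limma p of 0.000905 was the smallest of the 71 member probes (adjusted p 0.106).

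HSF1, the master factor of the heat shock response, read 11434, 14183 and 12195 with the vector label and 14087, 12306 and 14774 with the CCN5 label. The groups overlapped, with a difference of 0.11 (SE 0.13, interval -0.22 to 0.43; adjusted p 0.700). HSF1 is regulated mainly through its protein, which arrays do not read.

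**Figure D3:**
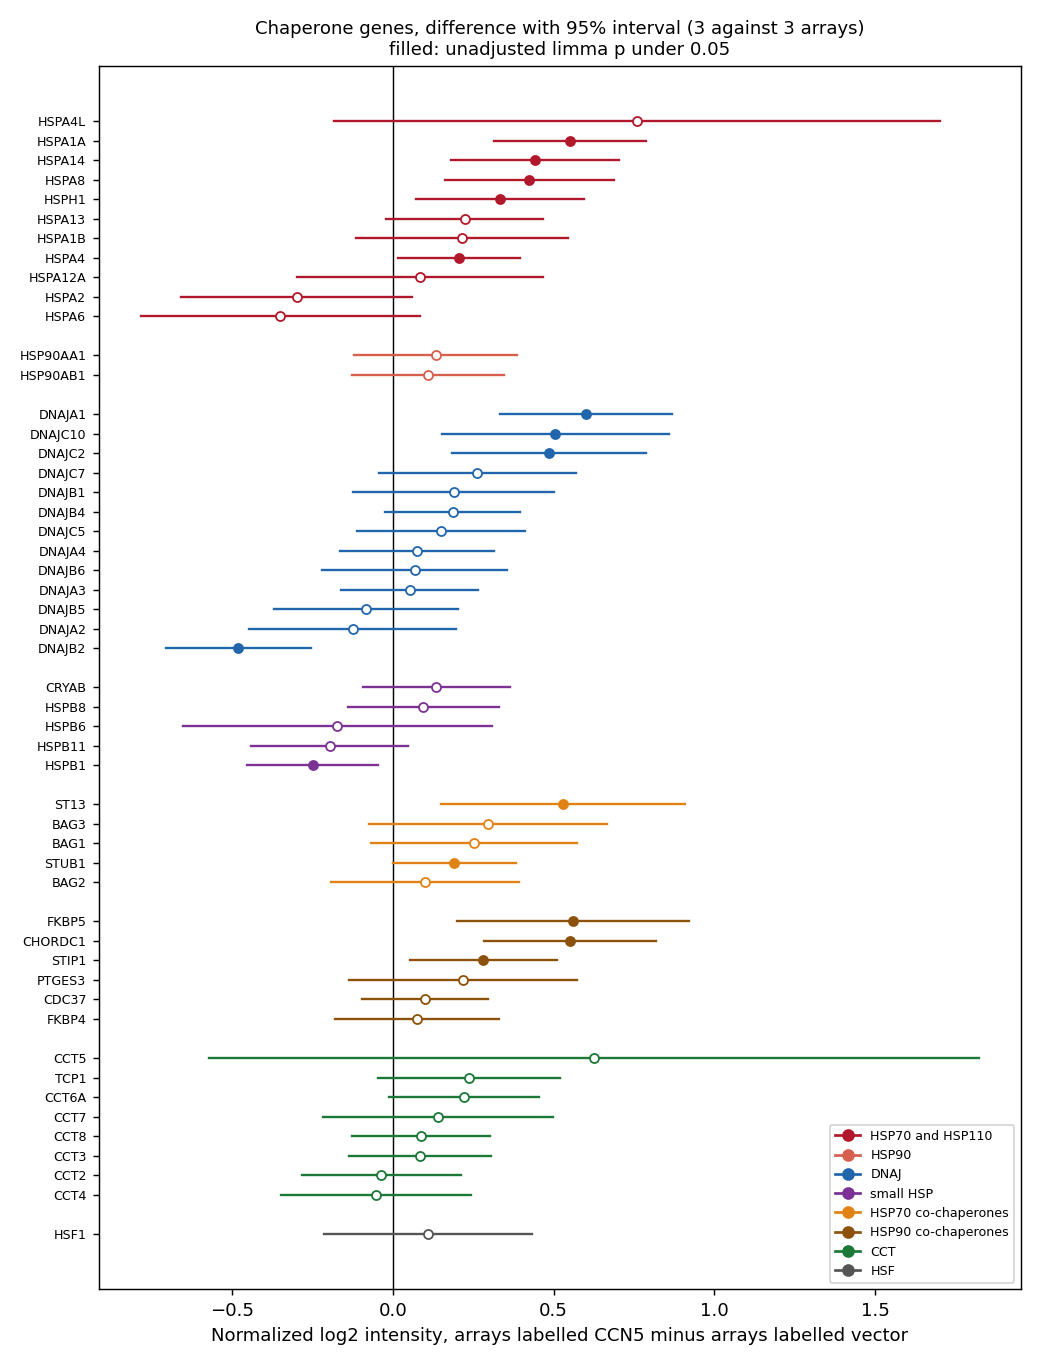
Difference in normalized log2 intensity (horizontal axis, CCN5-labelled minus vector-labelled arrays) with its 95% interval for each of the 51 genes, coloured by role and filled where the unadjusted limma p is under 0.05. The 13 filled genes above 0 belong to the HSP70, DNAJ and co-chaperone groups, DNAJB2 and HSPB1 are the 2 filled below 0, and the wide intervals are those of HSPA4L and CCT5.

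Both the members on a hand-written list of heat-induced genes and the other members had a median above 0. Of 14 measured members on that list, 12 were higher, with a median of 0.25 and 6 at an unadjusted p under 0.05 (42.9%). The list also held HSPA8, described above as constitutive, which was among those under 0.05. Of the other 37, 29 were higher, with a median of 0.11 and 7 under 0.05 (18.9%). Over all genes that share was 8.58%, and 10.8% among the brighter ones. The exceptions among the heat-induced genes were HSPA6 and HSPB1.

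By their brightest probes, genes with and without an exact pair or run of heat shock units in their windows had similar medians. Of the 44 members with both a window and a probe, the 7 with a run of at least 3 units had a median difference of 0.13, ranging from -0.35 (HSPA6) to 0.60 (DNAJA1). The 14 with a pair of units only had a median of 0.14, and the 23 with neither 0.15. Other probes of the genes with a run gave 0.28 (HSP90AA1), 0.10 (HSP90AB1), 0.43 and 0.06 (DNAJB6), 0.39 (HSPA8) and 0.50 (CHORDC1). The median of that class thus depends on the probes chosen. An unadjusted p under 0.05 in the higher direction was found for 3 of the 7 (DNAJA1, CHORDC1 and HSPA8), 2 of the 14 and 5 of the 23, against 8.58% of all genes. The windows of the first pair are shown in full because these 2 genes had the highest values of the 7, with every heat shock pair or run in capitals.
DNAJA1, chr9:33025023-33025322 (plus strand): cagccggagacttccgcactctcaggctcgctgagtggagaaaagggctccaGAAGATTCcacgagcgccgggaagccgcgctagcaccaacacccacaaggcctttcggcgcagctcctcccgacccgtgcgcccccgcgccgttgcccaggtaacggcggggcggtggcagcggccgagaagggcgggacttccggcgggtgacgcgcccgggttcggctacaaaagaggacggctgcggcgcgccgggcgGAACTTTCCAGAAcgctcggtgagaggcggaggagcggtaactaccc
CHORDC1, chr11:90223000-90223299 (minus strand): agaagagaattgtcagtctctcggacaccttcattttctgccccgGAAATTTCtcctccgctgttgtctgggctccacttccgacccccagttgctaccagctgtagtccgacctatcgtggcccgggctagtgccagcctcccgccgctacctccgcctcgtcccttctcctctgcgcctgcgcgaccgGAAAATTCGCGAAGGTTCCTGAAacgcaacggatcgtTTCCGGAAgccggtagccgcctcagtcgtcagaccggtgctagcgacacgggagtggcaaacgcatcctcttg

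**Figure D4:**
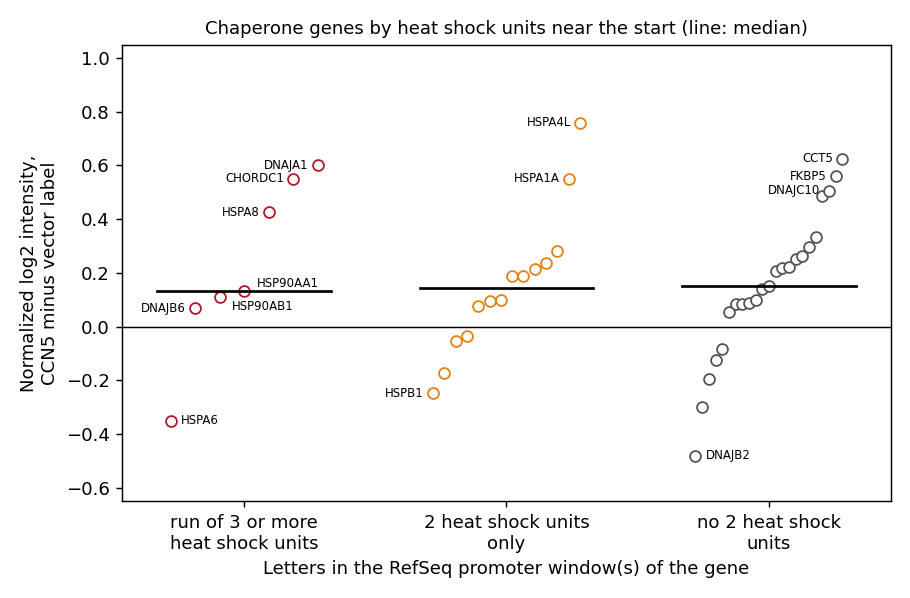
Difference in normalized log2 intensity (vertical axis) for the 44 chaperone genes with a promoter window and a probe, grouped by the heat shock units in their windows, with 1 point per gene and a line at the median. By the brightest probe of each gene, the 3 medians lie between 0.13 and 0.15, and each class holds genes on both sides of 0.

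Other cytosolic chaperone genes, from a list of 36 with prefoldin subunits, further co-chaperones, nascent-chain factors and more small heat shock proteins, had a median of 0.09. Of 35 measured, 21 were higher, and at an unadjusted p under 0.05 the list held 3 higher (8.57%) and 1 lower (2.86%), close to or below the background given above. After adjustment over all probes 0 were called. With limma on the brighter 50% of probes, 2 of the 37 probes of this list found there were called higher (5.41%, background 3.06%). SUGT1, an HSP90 co-chaperone that shares the CS domain with CHORDC1, read 1826, 1846 and 1797 with the vector label and 2726, 2360 and 3002 with the CCN5 label, with no overlap, and stood at 0.57 (SE 0.11, adjusted p 0.116). TXNDC9, a regulator of CCT, stood at 0.30 (SE 0.11). In the other direction the small heat shock protein HSPB3, a dim probe at percentile 22.0, stood at -0.45 (SE 0.08) and UNC119 at -0.22 (SE 0.10). A list of other heat shock factors, which also held the factor-binding protein HSBP1, had 4 genes measured. Of these, 1 was higher and 3 lower, 2 of them at an unadjusted p under 0.05 (50%, background 11.2%). With only 4 genes that share is coarse.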

How the data were processed

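The deposited table holds 1 linear intensity per probe and array. Per the labels, total RNA was amplified as antisense RNA from a T7 oligo(dT) primer and labelled with Cy3, so signal comes mainly from 3′ ends. The sources used here do not give the scanner, the background correction or the authors' normalization. Values below 0 occurred on 3 arrays, and 5.35% of probes were under 1 on vector replicate 1.

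Intensities under 1 were set to 1, taken to log2 and quantile normalized. A two-sided limma fit (version 3.58.1 under R 4.3.3, lmFit then eBayes) of 3 arrays against 3 without covariates took in all 28264 probes, and p-values were adjusted by Benjamini-Hochberg across the whole array, with calls at 0.05. The platform annotation named 25893 probes, and 2371 stay unnamed here. Its entrez identifiers matched the RefSeq table of GRCh38.p14, giving 19090 genes, each represented by its brightest probe, and HSPB11 was found under its current symbol, IFT25. All 51 measured members are named, and of the other cytosolic chaperone genes the 2 of smallest p on each side of 0. The members, roles, lists and tests were chosen with earlier results of these data known. The heat-induced, context and marker lists were written by hand, not copied from a database.

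RefSeq promoter windows were searched for exact letters on both strands. Arrays of the same replicate number did not deviate together (correlations of -0.14, 0.12 and 0.02 over the brighter 50% of probes), so the numbers were not taken as pairs. Alternatives changed the scale (as deposited, median-centred, or log2(value + 50)), the probes (without the dimmest 25%, without the dimmest 50%, or the mean of a gene's probes), the variance (trended and robust, or with array weights), the design (a replicate block) and the arrays (each left out). The level of background is unknown without detection flags, and precision is limited by the 6 arrays. Figures were drawn with matplotlib 3.10.9.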

Additional observations from a re-analysis of the deposited data

How the results depend on the processing

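The number of probes called at an adjusted p under 0.05 depended on the fit. Over all probes, 0 were called higher and 0 lower, against 59 and 180 with log2(value + 50), 33 and 151 without the dimmest 25% of probes, 432 and 567 without the dimmest 50%, and 188 and 336 with a trended robust variance. Of the member probes these gave 2 higher with log2(value + 50), 0 in either direction without the dimmest 25%, 10 higher and 1 lower without the dimmest 50%, and 5 higher and 1 lower with the trended variance. Leaving out 1 array gave 0 higher and 0 to 1 lower over all probes and 0 member probes in either direction. The median difference of the members was 0.19 on the deposited log2 scale, 0.24 with median centring, 0.19 without the dimmest 50%, and 0.13 to 0.19 with 1 array left out. Over all probes the median itself was -0.0047 after quantile normalization, 0.034 as deposited and 0.078 with median centring. Members at an unadjusted p under 0.05 numbered 13 higher and 2 lower. Those higher numbered 14 on the deposited scale, without the dimmest 25% and with the mean of probes. They numbered 15 with log2(value + 50) and without the dimmest 50%, 17 with the trended variance, and 9 to 13 with 1 array left out. Those lower numbered 1 on the deposited scale, with median centring, with the replicate block and with the mean of probes. They numbered 3 with the trended variance and 1 to 5 with 1 array left out. With the replicate block 9 members were higher at that p and the median was 0.15. The share of all genes at that p was not worked out for these alternative fits. A change in these counts therefore cannot be read as particular to the members. Whether equal replicate numbers pair the arrays is not stated in the sources used here. The CCN5 probe was lower in every setting, with all 6 arrays from -0.38 on the deposited scale to -0.32 with log2(value + 50), with -0.34 and an adjusted p of 0.0486 without the dimmest 50% of probes and -0.34 and 0.303 with the replicate block, and -0.38 to -0.30 with 1 array left out. Of the 51 members, 45 kept their direction in every setting and 6 turned. CCT4 went to 0.011 on the deposited scale and 0.056 with median centring, and CCT2 to 0.044 with median centring and 0.077 with the mean of probes. With 1 array left out CCT2 ranged from -0.082 to 0.034, CCT4 from -0.12 to 0.064, DNAJB6 from -0.013 to 0.18, FKBP4 from -0.015 to 0.13, HSPA12A from -0.070 to 0.24 and HSPB6 from -0.33 to 0.0054. The cause of these changes was not tested.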
